A study of Bos taurus with 12 samples.

Results

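The smooth muscle contractile genes described here are 10 genes that were chosen by symbol from what they are known to encode: ACTA2, ACTA1, TPM1, CALD1, CNN1, TAGLN, NEXN, MYH11, MYL4 and DES. The choice was made with earlier results of these data known, so their counts beside those of all genes are a description. They are 10 of the 29240 genes in the count table, and all 10 passed the filter on low counts that left 16300 genes for testing. They were measured in cattle (Bos taurus) precursor adipocytes, the fibroblast-like cells that can become fat cells, by RNA sequencing of polyadenylated RNA in 12 libraries, all collected 48 h after transfection. The si group was transfected for an interference assay and stands against si_NC, its negative control. The OE group received pcDNA3.1, a plasmid that drives its insert from a viral promoter, carrying the coding region of HGFAC, and stands against OE_NC, the group labelled pcDNA3.1-NC. Each of the 4 groups has 3 libraries. The labels name no target for si, and they do not say how many animals gave the cells or whether replicates were separate cultures, so the p-values cover only differences among these libraries, which may be technical. HGFAC encodes HGF activator, a blood protease that turns hepatocyte growth factor into its active form.

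Smooth muscle and contractile fibroblasts generate force when myosin filaments pull on actin filaments. Calcium acts through calmodulin and myosin light chain kinase, which phosphorylates the regulatory light chain of myosin, and the RhoA-ROCK pathway sustains the force by holding back the phosphatase that removes this phosphate. Tropomyosin, caldesmon and calponin lie along the actin filament and tune its contact with myosin, and intermediate filaments of desmin tie the apparatus together. Many genes of this set are switched on by serum response factor (SRF) with its cofactors of the myocardin family, and cultured fibroblasts and precursor adipocytes carry a part of the same set. The label covers 2 genes that are textbook genes of striated muscle, ACTA1 (skeletal muscle actin) and MYL4 (the light chain of atrial and embryonic muscle myosin).

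The count totals ran from 28.9 to 42.7 M per library. The 10 genes took 4.28 to 4.44% of all counts in OE libraries and 3.72 to 3.84% in OE_NC libraries, and they took 3.81 to 3.90% in si libraries and 3.86 to 4.34% in si_NC libraries. HGFAC reached 190, 156 and 138 CPM (counts scaled to a common library size by TMM, the edgeR method that corrects for composition) in OE replicates 1 to 3, against 0.273, 0.379 and 0.526 CPM in OE_NC. The OE libraries stood far above every other library, by 8.67 ± 0.19 (SE) on the log2 scale over OE_NC (edgeR adjusted p = 4.31e-13; two-sided exact permutation p = 0.1, the smallest that 3 against 3 libraries can give). HGFAC stood at 0.843, 0.525 and 0.605 CPM in si, against 0.818, 0.738 and 0.935 CPM in si_NC, ranges that overlap (log2 change −0.35 ± 0.27; edgeR adjusted p = 0.512; exact permutation p = 0.3).

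Most of the genes were abundant in these cells, while the skeletal actin ACTA1 and the myosin genes MYL4 and MYH11 were low. Per exon length, as RPKM, the reads scaled by exon length and library total, CALD1 had the highest mean level over the 12 libraries (2440 RPKM), rank 16 of the 29240 genes. TPM1 followed at 2233 RPKM, NEXN at 1826 RPKM and ACTA2 at 1612 RPKM. These 4 changed places between libraries: CALD1 exceeded TPM1 in 8 of the 12 libraries, TPM1 exceeded NEXN in 10 and NEXN exceeded ACTA2 in 7. TAGLN, at 755 RPKM, was below ACTA2 in all 12 libraries and above DES in all 12. DES (254 RPKM) and CNN1 (242 RPKM) were not ordered, since DES was the higher one in 6 of 12 libraries. A wide step led down to ACTA1 at 7.36 RPKM, MYL4 at 5.86 RPKM and MYH11 at 1.44 RPKM, and MYL4 exceeded MYH11 in all 12 libraries.

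**Figure D1:**
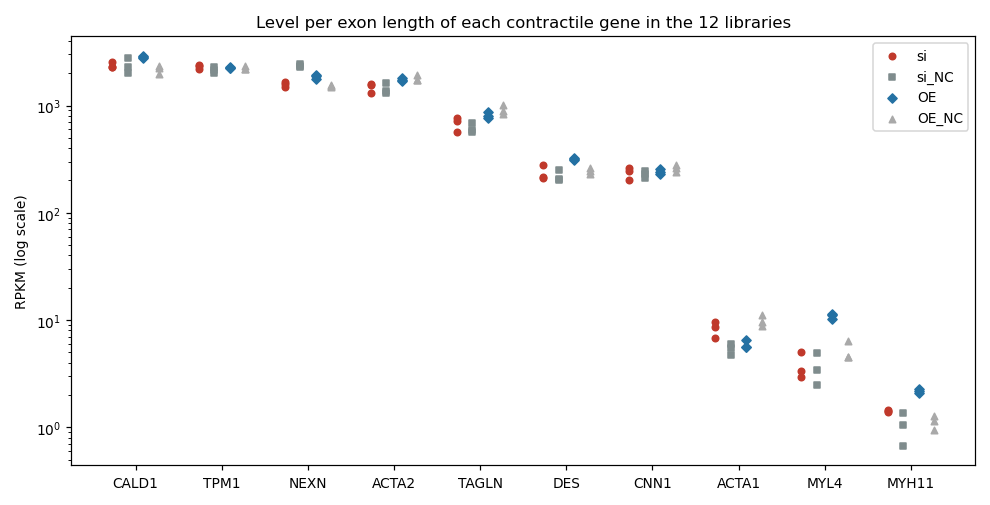
RPKM of each of the 10 genes (log axis) in every library, with si, si_NC, OE and OE_NC in this order from left to right within each gene. CALD1, TPM1, NEXN and ACTA2 lie between 1303 and 2913 RPKM in every library, while MYH11, the lowest gene, lies between 0.674 and 2.29 RPKM.

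MYH11, the myosin heavy chain that marks mature smooth muscle, was thus the lowest of the 10 per exon length. Myocardin (MYOCD), the SRF cofactor that drives that state, averaged 0.827 CPM. Regulators of skeletal muscle identity were near 0, and markers of pericytes differed in level. The striated muscle list summed to 10.8 to 15.7 CPM per library over 27 genes; MYOG and MYOD1 averaged 0.00586 and 0.0427 CPM. Of the 8 pericyte genes, RGS5 averaged 0.00586 CPM and KCNJ8 0.0325 CPM, while PDGFRB averaged 109 CPM, CSPG4 34.9 CPM and NOTCH3 6.18 CPM; the last 3 are also made by other cells. The list of 15 genes for stromal cells and precursor adipocytes was also uneven. COL1A2, a collagen chain of stromal cells, averaged 7200 CPM, VIM 5940 CPM and PDGFRA 275 CPM. On the same list PI16 averaged 0.390 CPM, DPP4 0.206 CPM, DLK1 0.0689 CPM and CD34 0.0287 CPM.

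Overexpression of HGFAC was set against its plasmid control to ask which contractile genes differ when HGFAC is raised. Of the 10 genes 5 rose and 1 fell, which makes 6 called genes, where 4.47% of all 16300 tested genes were called (2.22% higher, 2.25% lower). The genes that rose were the 2 myosin genes MYL4 and MYH11, the thin filament genes CALD1 and NEXN, and DES, and the gene that fell was ACTA1. The smooth muscle actin ACTA2 and the genes TPM1, CNN1 and TAGLN were not called. In bulk RNA, a change in the share of cells that carry a transcript and a change in its amount per cell cannot be told apart.

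Of the myosin genes, MYL4 had 9.70, 8.71 and 9.46 CPM in OE replicates 1 to 3, against 3.76, 3.71 and 5.20 CPM in OE_NC. Every OE library lay above every OE_NC library, with a log2 change of 1.14 ± 0.21 (SE), or 2.20-fold with a 95% interval of 1.60 to 3.02 (edgeR adjusted p = 0.0161). MYL4 lies on chromosome 19 (46285322 to 46300144, plus strand, 7 exons), in coordinates of the count table, which names no build. MYH11 had 14.8, 15.6 and 13.9 CPM in OE, against 6.22, 7.40 and 8.33 CPM in OE_NC. The groups did not overlap, and the level was 2.02-fold higher with an interval of 1.56 to 2.60 (log2 change 1.01 ± 0.17; edgeR adjusted p = 0.0118). MYH11 (chromosome 25, 14124960 to 14252447, minus strand, 43 exons) shares 686 of its 6667 exon bases with NDE1 on the opposite strand. NDE1 averaged 60.3 CPM, above MYH11 itself, and had a log2 change of 0.18 in OE (edgeR adjusted p = 0.107). The setting for strand in the authors' counting is not given in the sources used here, so reads of the 2 genes may not be separated there.

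Among the regulators of the thin filament, CALD1 encodes caldesmon, an actin- and calmodulin-binding protein that holds back the myosin ATPase. It had 18892, 18635 and 18010 CPM in OE, against 12423, 14573 and 14081 CPM in OE_NC. All OE libraries were above all OE_NC libraries, by a log2 change of 0.44 ± 0.09 (1.35-fold, interval 1.18 to 1.55, edgeR adjusted p = 0.0245). They were also above the si and si_NC libraries, but si_NC replicate 2, at 17960 CPM, nearly equalled the lowest OE library. CALD1 lies on chromosome 4 (98449568 to 98681120, plus strand, 22 exons). NEXN encodes nexilin, an actin-binding protein of the Z disc and of cell-matrix contacts, and had 9573, 9371 and 8669 CPM in OE, against 7274, 7287 and 7129 CPM in OE_NC. The OE_NC libraries were nearly equal, and the OE libraries stood above them by a log2 change of 0.35 ± 0.06 (1.27-fold, interval 1.16 to 1.40; edgeR adjusted p = 0.0144). NEXN (chromosome 3, 66740716 to 66798062, minus strand, 13 exons) shares 1059 of its 4880 exon bases with FUBP1 on the opposite strand, a gene with a mean of 335 CPM and a log2 change of 0.04 in OE (edgeR adjusted p = 0.751).

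DES encodes desmin, the intermediate filament of muscle, and had 713, 733 and 702 CPM in OE, against 501, 531 and 575 CPM in OE_NC. The lowest OE library was above the highest OE_NC library, with a log2 change of 0.42 ± 0.10 (1.34-fold, interval 1.15 to 1.56; edgeR adjusted p = 0.0399). The DES call was lost with library totals (adjusted p = 0.0608) and with limma on log2(RPKM + 1) and log2(RPKM + 0.1) (adjusted p = 0.0842 and 0.0871), where CALD1 was lost too (adjusted p = 0.0778 and 0.0806); NEXN was lost on the second of these scales (adjusted p = 0.0504). DES lies on chromosome 2 (107351886 to 107358961, plus strand, 9 exons).

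ACTA1 moved the other way, with 9.26, 9.23 and 10.6 CPM in OE, against 15.3, 17.3 and 13.8 CPM in OE_NC. The groups did not overlap, and ACTA1 fell by 0.68 ± 0.14 on the log2 scale (0.626-fold, interval 0.511 to 0.766; edgeR adjusted p = 0.0208). ACTA1 lies on chromosome 28 (1400443 to 1403202, minus strand, 8 exons). The protein is nearly identical to those of ACTA2 and ACTC1, their transcripts were not compared here, and how reads that map to several genes were counted is not given in the sources used here, so the ACTA1 and ACTC1 values are uncertain. ACTC1, the cardiac actin, also fell, with 1.41 ± 0.0204 CPM in OE and 2.85 ± 0.175 CPM in OE_NC (SD, n = 3 each; log2 change −1.02 ± 0.19; edgeR adjusted p = 0.0161).

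The other 4 genes showed no called change. ACTA2, the actin of smooth muscle and the usual marker of contractile fibroblasts, had 3494, 3649 and 3718 CPM in OE, against 3884, 3410 and 3463 CPM in OE_NC, so that the groups overlapped (log2 change 0.01, interval −0.18 to 0.21). TPM1, a tropomyosin that runs along the actin filament, had a log2 change of 0.07 (interval −0.07 to 0.21). CNN1, calponin, an actin-binding protein of differentiated smooth muscle, had a log2 change of −0.06 (interval −0.26 to 0.15). TAGLN, transgelin, an early gene of the smooth muscle programme, had a log2 change of −0.13 (interval −0.37 to 0.11). Their edgeR adjusted p-values ran from 0.513 to 0.947. The intervals of ACTA2 and TPM1 reach no further than 0.21 in either direction, below the log2 change of CALD1, while that of TAGLN reaches further down. In coordinates of the count table, ACTA2 lies on chromosome 26 (10626812 to 10679430, minus strand), TPM1 on chromosome 10 (46993263 to 47022966, minus strand), CNN1 on chromosome 7 (15883452 to 15891280, plus strand) and TAGLN on chromosome 15 (27889556 to 27894949, plus strand). ACTA2 shares 95 of its 2059 exon bases with FAS on the opposite strand, a gene with a mean of 6.18 CPM.

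**Figure D2:**
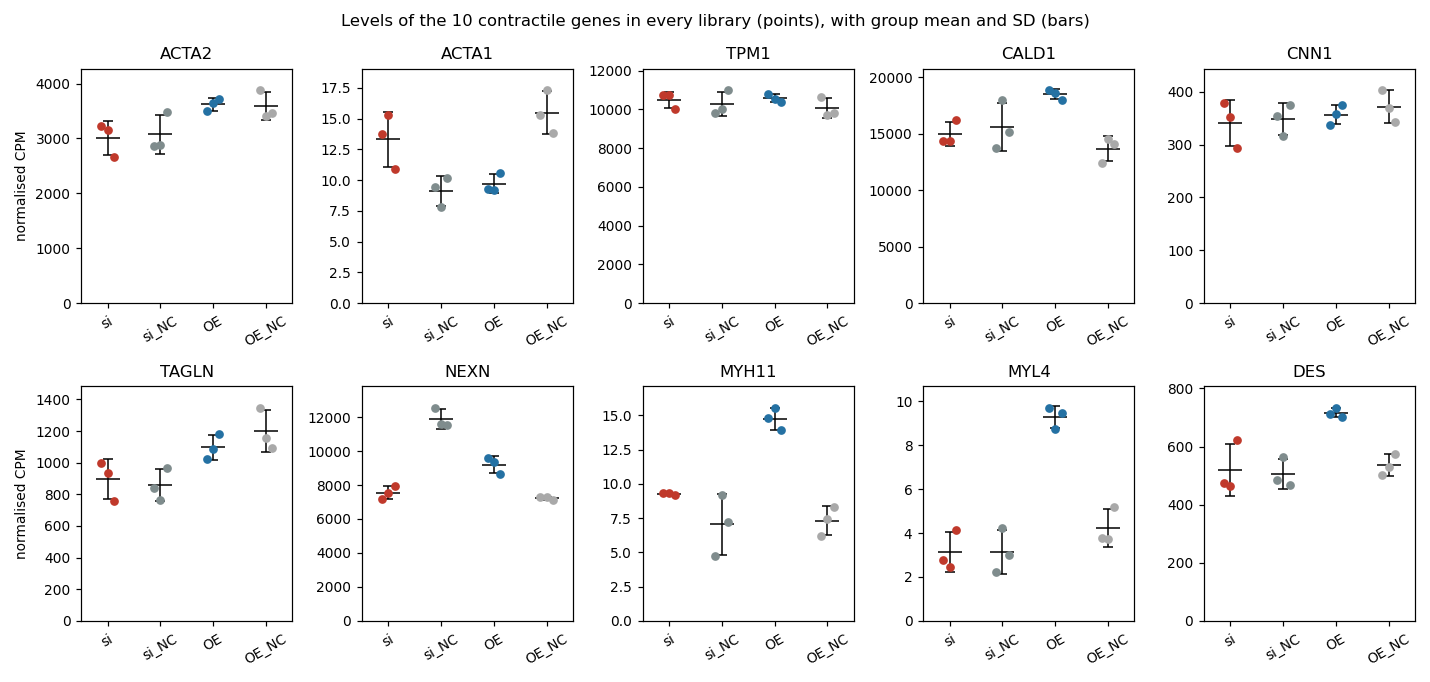
TMM-scaled CPM (linear axes from 0) of each of the 10 genes in every library, with group means and SD as bars (n = 3 each) and groups in the order si, si_NC, OE, OE_NC. MYL4 and MYH11 stand highest in the 3 OE libraries, and NEXN stands highest in si_NC, at 11513 to 12546 CPM.

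Over the 10 genes the median log2 change in OE against OE_NC was 0.21, beside −0.005 over all genes tested, and 6 of 10 genes had groups that did not overlap, beside 33.3% of all genes. The calls depended on single libraries. Leaving out OE replicate 1 left 2 called genes, leaving out replicate 2 left 0 and leaving out replicate 3 left 2, with 225, 19 and 35 calls among all genes. Of OE_NC, leaving out replicate 1 or replicate 2 left 0 called genes and leaving out replicate 3 left 6, with 45, 32 and 758 calls among all genes. All 6 genes kept their direction in each of these fits, with log2 changes of 1.04 to 1.29 for MYL4, 0.90 to 1.09 for MYH11, 0.36 to 0.47 for CALD1, 0.36 to 0.45 for DES, 0.30 to 0.39 for NEXN and −0.77 to −0.60 for ACTA1. Within OE_NC, replicate 1 was the lowest for CALD1, MYH11 and DES and the highest for ACTA2, TPM1, CNN1 and TAGLN. It also differed over genes in general. The chi-square of counts per gene was 25.8 and 37.1 between OE_NC replicate 1 and replicates 2 and 3, and 7.60 between replicates 2 and 3. Within OE it ran from 4.01 to 8.26.

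Changes in OE against OE_NC also moved with gene length. The median log2 change was −0.19 in the shortest of 4 equal classes of exon length (54 to 1627 bases), −0.04 and 0.03 in the middle classes and 0.11 in the longest (4861 to 106333 bases). NEXN (4880 bases), CALD1 (6418 bases) and MYH11 (6667 bases) are in the longest class and rose, while ACTA1 (1623 bases) is in the shortest and fell. MYL4 (842 bases) is in the shortest class and rose, and DES (2237 bases) is in the second class and rose. In a fit with an offset that removes each library's trend on exon length, which was added after seeing the data, all 6 genes were called in the same directions. For OE_NC against si_NC the class medians ran the other way, from 0.20 in the shortest class to −0.07 in the longest. Both comparisons share the OE_NC libraries. For si against si_NC the class medians were 0.05, 0.01, 0.008 and 0.03. The exon lengths of the other genes read from lists below, and of ACTC1, were not set beside this trend. Its part in their changes was not tested.

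**Figure D3:**
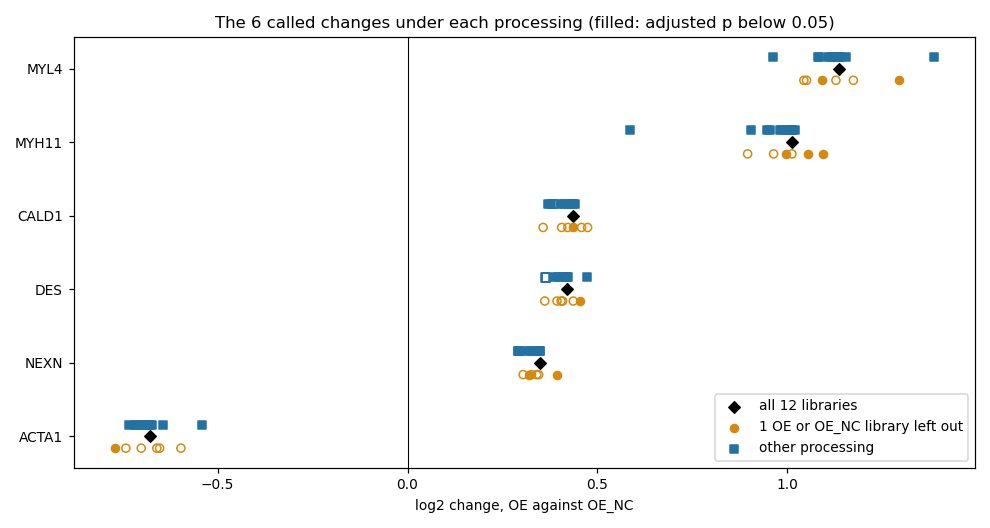
Log2 change of the 6 called genes in OE against OE_NC with all 12 libraries (diamonds), with 1 OE or OE_NC library left out (circles) and under each other processing (squares); filled symbols have an adjusted p below 0.05. No symbol crosses 0; most circles are open, and most squares are filled.

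Interference was set against its own control in the same way. Of the 10 genes 1 was called, NEXN, which was lower in si, where 2.54% of all genes were called (0.92% higher, 1.62% lower). NEXN had 7160, 7525 and 7941 CPM in si, against 12546, 11615 and 11513 CPM in si_NC. The highest si library was well below the lowest si_NC library, and NEXN fell by 0.66 ± 0.06 on the log2 scale (0.634-fold, interval 0.577 to 0.697; edgeR adjusted p = 0.000313). It was called in each of the 6 fits that leave out an si or si_NC library, and with a log2 change between −0.72 and −0.58 in each of the 12 other alternatives. FUBP1, which shares exon bases with NEXN, had a log2 change of −0.21 in si (edgeR adjusted p = 0.0955).

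ACTA1 stood next to the threshold in si. It had 13.8, 15.3 and 10.9 CPM in si, against 9.42, 7.81 and 10.1 CPM in si_NC, groups that did not overlap (log2 change 0.54 ± 0.14, interval 0.25 to 0.84; edgeR adjusted p = 0.052). Over the alternatives its adjusted p ran from 0.00387 to 0.189, and it was below 0.05 in 1 of the 6 fits without an si or si_NC library (the one without si replicate 3) and in 7 of 12 others. MYH11 had 9.30, 9.34 and 9.16 CPM in si, against 4.74, 9.18 and 7.21 CPM in si_NC (log2 change 0.40 ± 0.18; edgeR adjusted p = 0.233). Its si libraries were nearly equal while the si_NC libraries were spread, and the second of them lay within the si range. MYL4 had 2.77, 2.44 and 4.15 CPM in si, against 2.22, 4.22 and 3.005 CPM in si_NC, with no order between the groups (log2 change −0.01, interval −0.52 to 0.49).

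The 6 others, ACTA2, TPM1, CALD1, CNN1, TAGLN and DES, had log2 changes between −0.06 and 0.07 in si, with groups that overlapped. Their 95% intervals all lie between −0.26 and 0.30. The median log2 change of the 10 genes was 0.01 in si, beside 0.02 over all genes, and 2 of 10 had groups that did not overlap, beside 20.8% of all genes. Within si, replicate 3 was the lowest of the 3 for ACTA2, TAGLN, CNN1, TPM1, ACTA1 and MYH11 and the highest for CALD1, DES, NEXN and MYL4, though the MYH11 values were nearly equal. Replicate 3 also differed over genes in general. The chi-square of counts per gene was 3.95 between si replicates 1 and 2, and 37.1 and 38.7 between each of these and replicate 3. In si_NC, replicate 2 was the highest for CALD1, DES, MYL4 and MYH11 and the lowest for CNN1, TAGLN and ACTA1. It did not stand out by this, since replicate 1 was the highest for 1 gene and the lowest for 5, and replicate 3 the highest for 5 and the lowest for 2. Over genes in general, the chi-square per gene was 40.0 and 25.2 between si_NC replicate 2 and replicates 1 and 3, and 9.74 between replicates 1 and 3. Without si replicate 3 and si_NC replicate 2, an alternative added after seeing the data, 3 of the 10 genes were called in si (ACTA1 and MYH11 beside NEXN), while calls among all genes went up as well, to 1119 beside 414 with all libraries.

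**Figure D4:**
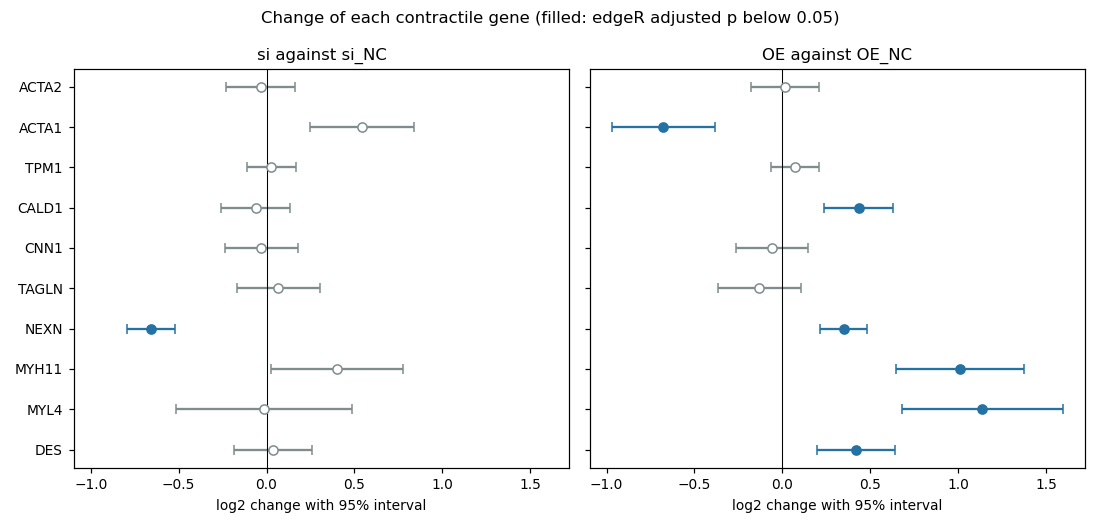
Log2 change of each of the 10 genes with its 95% interval, si against si_NC on the left and OE against OE_NC on the right; filled points have an edgeR adjusted p below 0.05. One point is filled for si (NEXN, −0.66) and 6 are filled for OE, from ACTA1 at −0.68 to MYL4 at 1.14.

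The change in OE was then compared with the change in si, as the difference of the 2 log2 changes. Of the 10 genes 4 were called, 3 with a higher and 1 with a lower change in OE, where 8.41% of all genes were called (4.29% higher, 4.12% lower). NEXN had a difference of 1.01 ± 0.09 (edgeR adjusted p = 7.18e-05), since it was higher in OE than in OE_NC and lower in si than in si_NC. ACTA1 had a difference of −1.22 ± 0.19 (edgeR adjusted p = 0.00348), since it was lower in OE than in OE_NC, and its log2 change in si was 0.54. Both were called in each of the 12 fits that leave out a library. The controls themselves differed in both genes, with log2 changes of −0.72 for NEXN and 0.76 for ACTA1 in OE_NC against si_NC. Mean NEXN was 9204 CPM in OE and 7230 CPM in OE_NC, and 7542 CPM in si and 11892 CPM in si_NC. Mean ACTA1 was 9.69 CPM in OE and 15.5 CPM in OE_NC, and 13.3 CPM in si and 9.12 CPM in si_NC. CALD1 had a difference of 0.50 ± 0.13 (edgeR adjusted p = 0.0299) and MYL4 one of 1.15 ± 0.32 (edgeR adjusted p = 0.0381); they were called in 5 and 3 of these 12 fits. MYH11 (0.61 ± 0.25; edgeR adjusted p = 0.137) and DES (0.38 ± 0.15; edgeR adjusted p = 0.125) were called in OE and not in si, but the difference of their changes was not called. With scaling by library totals the median difference of all genes was −0.16, against −0.02 with TMM, and 2 of the 10 genes were called, NEXN and ACTA1.

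The 2 controls were compared to see how far the assays differ at baseline. OE_NC against si_NC gave 3 called genes of 10, where 19.7% of all genes were called (9.49% higher, 10.2% lower), and 3 of 10 with groups that did not overlap, beside 35.8% of all genes. The count is therefore near that of genes in general. NEXN fell to 7129 to 7287 CPM in OE_NC, against 11513 to 12546 CPM in si_NC (log2 change −0.72 ± 0.06; edgeR adjusted p = 1.63e-05). ACTA1 was at 13.8 to 17.3 CPM in OE_NC and at 7.81 to 10.1 CPM in si_NC (log2 change 0.76 ± 0.14; edgeR adjusted p = 0.00216). TAGLN was at 1096 to 1347 CPM in OE_NC and at 766 to 966 CPM in si_NC (log2 change 0.49 ± 0.11; edgeR adjusted p = 0.00763). Each of the 3 was called in all 6 fits without a library of these groups and in all 12 other alternatives, the length offset among them. All 3 moved with the trend on exon length between the controls. ACTA1 (1623 bases) and TAGLN (1341 bases) are in the shortest class, where the median log2 change was 0.20. NEXN (4880 bases) is in the longest, where it was −0.07. ACTA2 had a log2 change of 0.22 ± 0.09 (edgeR adjusted p = 0.1). Since each control is also part of its own assay's comparison, these values and those above share libraries: for NEXN and ACTA1 the OE_NC libraries were near the si libraries, and the OE libraries lay toward si_NC. Whether the assays ran together is not given in the sources used here, so a difference between the control agents and one between the assays' runs cannot be told apart.

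The pattern of each gene over the 12 libraries was also set beside those of 9479 other genes with a mean of at least 5 CPM, as Pearson's r of log2 CPM. The points share the 4 groups and their libraries, so these values are a description. The most similar gene was APP for CALD1 (r = 0.988), RNF121 for TAGLN (r = 0.978), ANXA5 for MYL4 (r = 0.977), MAP4K4 for NEXN (r = 0.974) and LAMA4 for MYH11 (r = 0.971). It was LOC112443177 for ACTA1 (r = 0.971), NDUFA8 for CNN1 (r = 0.964), DPM1 for ACTA2 (r = 0.952) and SKIL for TPM1 (r = 0.796). The mean of the 10 standardised patterns was most like TICAM2 (r = 0.954), EBAG9 (r = 0.930), DSTN (r = 0.921), IST1 (r = 0.914) and VPS11 (r = 0.911).

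Other genes of the contractile programme were read from lists drawn up by gene function. The 16 regulators of the programme are SRF, its cofactors and other factors, KLF4 and ELK1 among them, and need not all act in the same direction. Of these, 0 were called in OE by edgeR (3 at an unadjusted p below 0.05, 1 by DESeq2, 0 by limma) and 0 in si (4 at an unadjusted p below 0.05, 0 by DESeq2, 0 by limma). The shares of all genes called were 4.47% in OE and 2.54% in si. CSRP1, the most abundant regulator and a LIM protein of smooth muscle, averaged 150 CPM in OE and 149 CPM in OE_NC, and 163 CPM in si and 135 CPM in si_NC (log2 changes 0.02 and 0.27; edgeR adjusted p = 0.945 and 0.149). The controls differed in 8 of the 16, with 4 higher and 4 lower in OE_NC, where 19.7% of all genes were called. Of these, CSRP2, another LIM protein, stood at 21.5 ± 3.82 CPM in OE_NC and 10.4 ± 1.72 CPM in si_NC (SD, n = 3 each), MKL1, the SRF cofactor also named MRTFA, at 47.4 ± 3.39 CPM in OE_NC and 66.9 ± 6.12 CPM in si_NC, and SRF itself at 29.8 ± 3.12 CPM in OE_NC and 36.9 ± 0.401 CPM in si_NC. Their log2 changes were 1.04 (edgeR adjusted p = 0.000609), −0.50 (edgeR adjusted p = 0.00153) and −0.31 (edgeR adjusted p = 0.0158).

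Of 19 other genes tested on the smooth muscle and thin filament list, 3 rose and 0 fell in OE, and 1 was called in si. Among all genes 4.47% were called in OE and 2.54% in si. The 19 include MYOCD, an SRF cofactor that is also among the 16 regulators above. MYLK, the myosin light chain kinase, averaged 1203 ± 9.28 CPM in OE and 739 ± 112 CPM in OE_NC (SD, n = 3 each; log2 change 0.70 ± 0.16; edgeR adjusted p = 0.0285). SYNPO2, an actin-binding protein of the Z disc, rose by 0.57 ± 0.15 (edgeR adjusted p = 0.043), and SYNM, an intermediate filament protein that joins desmin, rose by 0.41 ± 0.09 (edgeR adjusted p = 0.0254). Each of the 3 was called in 1 of the 6 fits without an OE or OE_NC library. In the 12 other alternatives MYLK was called in 10, SYNM in 9 and SYNPO2 in 8. In si, 1 of the 19 was called, CNN2, a calponin of many cell types, with 42.8 ± 2.24 CPM in si and 30.8 ± 1.94 CPM in si_NC (SD, n = 3 each; log2 change 0.48 ± 0.08; edgeR adjusted p = 0.00911). The median log2 change of the 19 was 0.06 in OE, beside −0.005 over all genes, and 0.01 in si, beside 0.02 over all genes. The controls differed in 8 of these genes, beside 19.7% of all genes, 7 higher in OE_NC, among them TPM2 (log2 change 0.37; edgeR adjusted p = 0.00129) and CNN2 (0.47; edgeR adjusted p = 0.00139), and 1 lower, PDLIM5 (−0.52; edgeR adjusted p = 0.00141).

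Of 17 genes of nonmuscle myosin and of RhoA-ROCK control, 3 rose and 1 fell in OE. Calls among all genes were 4.47% in OE and 2.54% in si. MYH10, the heavy chain of nonmuscle myosin IIB, averaged 7167 ± 111 CPM in OE and 4969 ± 498 CPM in OE_NC (SD, n = 3 each; log2 change 0.53 ± 0.08; edgeR adjusted p = 0.00907), and was called in 4 of 6 fits without a library. ROCK1, the kinase that restrains myosin phosphatase, rose by 0.32 ± 0.08 (edgeR adjusted p = 0.0446), and PPP1R12A, the targeting subunit of that phosphatase, rose by 0.26 ± 0.07 (edgeR adjusted p = 0.046). RHOB, a small GTPase related to RhoA, fell by 0.38 ± 0.08 (edgeR adjusted p = 0.0277). ROCK1 and RHOB were each called in 1 of these 6 fits and PPP1R12A in 0. MYH10 and RHOB were called in all 12 other alternatives, the length offset among them. ROCK1 and PPP1R12A were each called in 6 of these 12. MYH9, the heavy chain of nonmuscle myosin IIA, averaged 16387 CPM in OE and 13326 CPM in OE_NC (log2 change 0.30; edgeR adjusted p = 0.063). In si, 0 of the 17 were called by edgeR (1 at an unadjusted p below 0.05, 0 by DESeq2, 0 by limma). The controls differed in 6 of the 17, beside 19.7% of all genes, 3 higher and 3 lower in OE_NC, among them MYL12B, a regulatory light chain of nonmuscle myosin (log2 change 0.60; edgeR adjusted p = 0.00144), and ROCK1 (−0.35; edgeR adjusted p = 0.00921).

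Of 16 genes of actin and its attachment to membranes, ACTC1 was the 1 gene called in OE, as given above. Beside this, 4.47% of all genes were called in OE and 2.54% in si. In si the 1 call was ACTG1, cytoplasmic gamma actin, with 1786 ± 11.5 CPM in si and 2217 ± 191 CPM in si_NC (SD, n = 3 each; log2 change −0.31 ± 0.08; edgeR adjusted p = 0.0443). It was called in 2 of 6 fits without a library. The controls differed in 5 of the 16, beside 19.7% of all genes, 1 higher and 4 lower in OE_NC, and ACTG1 was among the lower ones (log2 change −0.42; edgeR adjusted p = 0.0024).

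Markers of other cells were set beside these changes. For comparison, 4.47% of all genes were called in OE and 2.54% in si. In OE, edgeR called 0 genes of the lists for striated muscle (12 tested), pericytes (6), stromal cells and precursor adipocytes (13), mature adipocytes (7), endothelium (5) and immune cells (4). The unadjusted p was below 0.05 for 0, 1, 5, 1, 0 and 1 of them, with 0, 0, 2, 1, 0 and 0 called by DESeq2 and 0, 0, 1, 1, 0 and 0 by limma. The striated list summed to 12.8 to 15.7 CPM in OE and 13.9 to 14.6 CPM in OE_NC, and the pericyte list to 151 to 154 CPM in OE and 127 to 164 CPM in OE_NC. The stromal list summed to 22155 to 23594 CPM in OE and 16644 to 22656 CPM in OE_NC, and its median log2 change was 0.25 with 9 of 13 genes positive, beside 0.21 for the 10 contractile genes. COL1A2 was at 8266 CPM in OE and 6415 CPM in OE_NC (log2 change 0.37; edgeR adjusted p = 0.182). In si, 1 pericyte gene, CSPG4 (log2 change 0.50 ± 0.11; edgeR adjusted p = 0.03), and 1 stromal gene, THY1 (0.66 ± 0.14; edgeR adjusted p = 0.0263), were higher; they were called in 1 and 2 of the 6 fits without an si or si_NC library. The pericyte list summed to 168 to 196 CPM in si and 109 to 158 CPM in si_NC, and the stromal list to 21252 to 27650 CPM in si and 15523 to 21713 CPM in si_NC. The lists for striated muscle, mature adipocytes, endothelium and immune cells had 0 calls by edgeR in si (2, 0, 0 and 1 at an unadjusted p below 0.05; 0 by DESeq2; 0, 0, 0 and 1 by limma). The part of these markers in the results for the contractile genes was not tested.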

How the data were processed

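RNA sequencing of polyadenylated RNA was read from 12 libraries, grouped by sample title; 0 columns of values were left unmapped. Raw counts per gene and RPKM were deposited by the authors. Per the submitters' processing notes, fastp 0.23.0 and featureCounts from Subread 1.5.1 were used; for the aligner, build and counting strand the sources used here give nothing. The deposited RPKM could be recomputed from counts, exon length and column totals with a largest relative difference of 5.3e-15. The 2 entries that name no gene (0.0868 to 0.116% of counts) were left out. Coordinates are those of the count table, with chromosome names found by symbol in the RefSeq table of ARS-UCD2.0.

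One edgeR 4.0.16 fit in R 4.3.3 held all 12 libraries (TMM, filterByExpr with minimum count 10 and minimum total 15, quasi-likelihood F test, a mean per group, 8 residual degrees of freedom), with Benjamini-Hochberg adjustment over 16300 genes and a threshold of 0.05. The SE was taken as the size of the log2 change over the square root of F. The procedure was tested on simulated data. Alternatives were DESeq2 size factors, library totals, DESeq2 1.42.0 with its Wald test, no filter, a filter of 5 CPM in 3 libraries, the compared groups alone, a replicate block, limma 3.58.1 on log2(RPKM + 1) and log2(RPKM + 0.1), halved counts (66.2 to 69.3% of nonzero counts were even) and leaving out each library.

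The 10 genes, the 10 lists (140 of 145 symbols found) and the tests were chosen with earlier results of these data known. Named are the 10 genes and HGFAC; per list and contrast up to 4 called genes by adjusted p, or the most abundant gene where none was called; and genes of like pattern or shared exons. Some genes that this rule selects are not reported here. Promoter sequences were not used here.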

Additional observations from a re-analysis of the deposited data

Results flagged for a closer look

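For 4 of the contractile genes the log2 change in OE differed from that in si by the test of the difference itself (edgeR adjusted p below 0.05): NEXN by 1.01, ACTA1 by −1.22, CALD1 by 0.50 and MYL4 by 1.15. HGFAC, the gene on the OE plasmid, differed by 9.02. Among the listed genes outside the 10, the change in OE exceeded that in si by 0.78 for MYLK, 0.69 for SYNM, 0.67 for MYH10, 0.42 for ROCK1 and 0.38 for ACTN1. The same difference was −0.73 for CNN2, −0.66 for MYL12B, −0.48 for RHOB, −1.32 for ACTC1, −0.68 for CSPG4, −0.77 for THY1, −0.40 for VIM and −1.51 for CSF1R. The difference was called in all 12 fits that leave out a library for NEXN, ACTA1, HGFAC, SYNM, MYH10, CNN2, MYL12B, ACTC1 and CSPG4, in 10 for ACTN1 and CSF1R, in 8 for VIM, 7 for RHOB, 6 for THY1 and 5 for CALD1, and in 3 for MYL4, MYLK and ROCK1. The controls themselves differed in a part of these genes. OE_NC against si_NC was called, with a sign opposite to the difference, for NEXN (−0.72), ACTA1 (0.76), HGFAC (−1.08), CNN2 (0.47) and MYL12B (0.60). The same held for THY1 (1.17), ROCK1 (−0.35), MYH10 (−0.25) and ACTN1 (−0.18). It was called with the same sign for SYNM (0.33) and was not called for the others. ACTA1 and ACTC1 encode nearly identical proteins, and how reads shared between them were counted is not known here. Groups of 3 libraries are too small for a test of single libraries against their group.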

How the results depend on the processing

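Of the values recomputed for the 10 genes, 626 kept direction and side of the threshold, 55 lost their call, 21 gained one and 68 changed sign. Causes of the moves below were not tested. The number of the 10 genes called was 2 in si under library totals, DESeq2, no filter, the 5 CPM filter, log2(RPKM + 0.1) and the length offset, where ACTA1 joined NEXN, and 3 without si replicate 3 and si_NC replicate 2 together. It was 3 in OE under log2(RPKM + 0.1), 2 for the difference under library totals and both RPKM scales, and 5 between the controls with no filter. Leaving out single libraries gave 1 to 2 in si, 0 to 6 in OE, 2 to 5 for the difference and 3 to 4 between the controls. Of all genes, 414 were called in si, against 1222 by DESeq2, 1208 with no filter, 8 in the compared groups alone, 1119 without the pair and 1093 with the length offset; 728 were called in OE, against 1561, 1679, 1621 and 2325 under the first 4 of these, and 1371 for the difference, against 2305 without the pair. Without single libraries these counts ran from 56 to 1083 in si, 19 to 758 in OE, 588 to 2152 for the difference and 1882 to 2833 between the controls (3215 with all). The split of calls depended on scaling: 150 higher and 264 lower in si with TMM against 298 and 106 with library totals, and 362 and 366 in OE against 159 and 653; the length offset gave 393 and 146 in OE.

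The values that changed sign were not called, before or after. In si they were 0.047 for ACTA2, 0.015 for CALD1, 0.052 for CNN1 and 0.061 for MYL4 with library totals; 0.047, 0.024, 0.045 and 0.058 on log2(RPKM + 1); 0.047, 0.024, 0.046 and 0.076 on log2(RPKM + 0.1); 0.00069 for CNN1 and 0.015 for MYL4 with the 5 CPM filter; −0.034 for DES without the pair; and −0.016 for TPM1, −0.019 for TAGLN and −0.0093 for DES with the length offset. In OE, ACTA2 gave −0.041 with library totals, −0.017 with the 5 CPM filter, −0.039 and −0.040 on the RPKM scales and −0.0096 with halved counts, CNN1 gave 0.10 and TAGLN 0.049 with the length offset, and CSRP1 gave −0.042, −0.017, −0.034, −0.035 and −0.0083 in the order used for ACTA2 and −0.042 with the length offset. For the difference, ACTA2 and TPM1 gave −0.088 and −0.091 with library totals, −0.014 and −0.017 with the 5 CPM filter and −0.087 and −0.091 on both RPKM scales, and CNN1 gave 0.21 and TAGLN 0.068 with the length offset. Between the controls, TPM1 gave 0.059 with library totals and both RPKM scales and 0.023 with the 5 CPM filter, and CNN1 gave −0.12 and DES −0.015 with the length offset. HGFAC, called as lower in OE_NC than in si_NC (−1.08), was not called at −1.07 in the compared groups alone, −0.16 on log2(RPKM + 1) and −1.03 with halved counts, and ran from −1.33 to −0.88 without single libraries. It was called in 2 of these 6 fits without a library, and it rests on 10 to 28 counts per library in these 2 groups.

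Without single libraries, values that crossed 0 in si ran from −0.092 to 0.058 for ACTA2, −0.0061 to 0.070 for TPM1, −0.15 to 0.042 for CALD1, −0.12 to 0.065 for CNN1, −0.024 to 0.17 for TAGLN, −0.27 to 0.24 for MYL4 and −0.12 to 0.12 for DES. In OE they ran from −0.030 to 0.063 for ACTA2 and −0.087 to 0.055 for CSRP1. For the difference they ran from −0.056 to 0.10 for ACTA2, −0.010 to 0.080 for TPM1 and −0.14 to 0.047 for CNN1, and between the controls from −0.16 to 0.29 for MYH11 and −0.074 to 0.017 for TPM1. Deviations of same-numbered libraries from their group means correlated at 0.092, −0.257 and −0.191 for si and si_NC and at 0.045, −0.010 and −0.015 for OE and OE_NC. The values were 0.189, 0.072 and −0.116 for OE_NC and si_NC, and −0.031, −0.026 and −0.076 for OE and si. Libraries of unlike number were not compared, so these values cannot decide whether the numbers pair the libraries. With a replicate block, 1, 6, 4 and 3 of the 10 genes and 396, 803, 1247 and 3150 of all genes were called in si, in OE, for the difference and between the controls. The exon length offset and the fit without the pair were added after seeing the data. The fit of the compared groups alone cannot give the difference. MYL4 rests on 68 to 350 counts per library, which limits small changes.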
